A study of Rattus norvegicus with 8 samples.

Results

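Endoplasmic reticulum (ER) stress and integrated stress response (ISR) genes were followed in primary rat nucleus pulposus (NP) cells, which fill the soft centre of the intervertebral disc, after knockdown of Sirt6, which encodes a nuclear histone deacetylase. The set held 35 genes chosen by name, namely 15 ER chaperones and foldases, 4 factors of ER-associated degradation (ERAD), the 3 sensors of the unfolded protein response (UPR) with Xbp1, Atf4 itself and 11 ATF4 targets. Of these, 34 were matched to a row of the count table and all 34 passed the filter on low counts, among 13250 genes tested. Nupr1 was not matched by name and its level is not analysed here. RNA-seq counts were compared between Sirt6-KD cells, labelled SIRT6KD/ShSirt6 (libraries S5 to S8, n = 4), and Sirt6-Ctrl cells, labelled SIRT6Ctrl/ShCtrl (libraries S1 to S4, n = 4). Both groups were cells of adult Sprague Dawley rats that had been grown in serum, transduced with lentivirus and selected with puromycin, so every library carries the effects of culture and virus. The authors describe culture in hypoxia before protein extraction and do not state the oxygen level of the cells used for RNA-seq. The knockdown group received a mixture of 3 ShSirt6 clones, the controls 1 control ShRNA, and the cells kept part of their Sirt6 RNA. No label names a chemical inducer of ER stress. The question was how the chaperone arm and the ATF4 target arm of the response compared between the groups.

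Proteins bound for secretion fold in the ER, where chaperones hold unfolded chains and foldases form disulfide bonds. When unfolded protein accumulates, the sensors IRE1 (gene Ern1), PERK (Eif2ak3) and ATF6 (Atf6) start the UPR, in which ATF6 and the spliced form of XBP1 drive the genes of chaperones and ERAD, while PERK phosphorylates eIF2α, slows translation and favours translation of the ATF4 protein. Other eIF2α kinases converge on the same step, which is why the ATF4 arm is called the integrated stress response; its targets include regulators of stress signalling and genes that supply amino acids. NP cells secrete large amounts of collagen and proteoglycan, which pass through the ER.

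The promoter sequences below are shown because they hold the DNA words by which the chaperone arm and the ATF4 arm are usually told apart. Windows from RefSeq reached from 250 bases before to 50 after each gene start on the GRCr8 assembly, and 30 of the 35 genes had one. Both strands were searched for the ER stress response element (ERSE, letters CCAAT, then any 9 bases, then CCACG), for ERSE-II (ATTGG, any base, CCACG), for the UPR element TGACGTGG and for the amino acid response core TGATGNAAN. The ERSE was present in 6 of 12 chaperone windows (Hspa5, Hsp90b1, Calr, Canx, Dnajc3 and Creld2) and in that of Xbp1, and in 0.0657% of all 33469 windows. ERSE-II was present in those of Dnajb11, Hyou1 and Herpud1 and in 0.0508% of all windows. The amino acid response core was present in 3 of 11 windows of ATF4 targets (Trib3, Chac1 and Nupr1), in that of Herpud1 and in 3.97% of all windows, and none of the 11 held an ERSE or ERSE-II. The UPR element was found for Hyou1, where it overlaps an ERSE-II, and in 0.595% of all windows. ERSE was first defined on promoters of such chaperone genes, so its presence here is a description and not a result. Each line gives the gene strand from 5′ to 3′, with the matched letters in capitals on whichever strand they were found.
Hspa5 ERSE, chr3:38452961-38453003, plus strand: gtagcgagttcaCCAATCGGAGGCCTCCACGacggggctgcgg
Hsp90b1 ERSE, upstream copy, chr7:23012439-23012481, minus strand: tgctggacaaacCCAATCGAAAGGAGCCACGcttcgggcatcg
Hsp90b1 ERSE, copy nearer the start, read on the other strand, chr7:23012335-23012377, minus strand: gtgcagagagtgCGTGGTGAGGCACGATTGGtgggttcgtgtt
Calr ERSE, read on the other strand, chr19:40213123-40213165, plus strand: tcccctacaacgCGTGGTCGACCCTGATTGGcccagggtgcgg
Canx ERSE, chr10:35158057-35158099, minus strand: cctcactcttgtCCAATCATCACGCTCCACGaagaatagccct
Xbp1 ERSE, chr14:84604546-84604588, plus strand: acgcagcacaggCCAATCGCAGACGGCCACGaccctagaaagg
Herpud1 ERSE-II, chr19:10614809-10614843, minus strand: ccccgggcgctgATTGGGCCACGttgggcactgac
Hyou1 ERSE-II, upstream copy, read on the other strand, chr8:53602682-53602716, plus strand: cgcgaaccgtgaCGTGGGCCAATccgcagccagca
Trib3 amino acid response core, read on the other strand, chr3:161275535-161275567, minus strand: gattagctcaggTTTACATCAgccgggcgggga
Chac1 amino acid response core, read on the other strand, chr3:126795951-126795983, plus strand: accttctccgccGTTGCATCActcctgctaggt

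**Figure D1:**
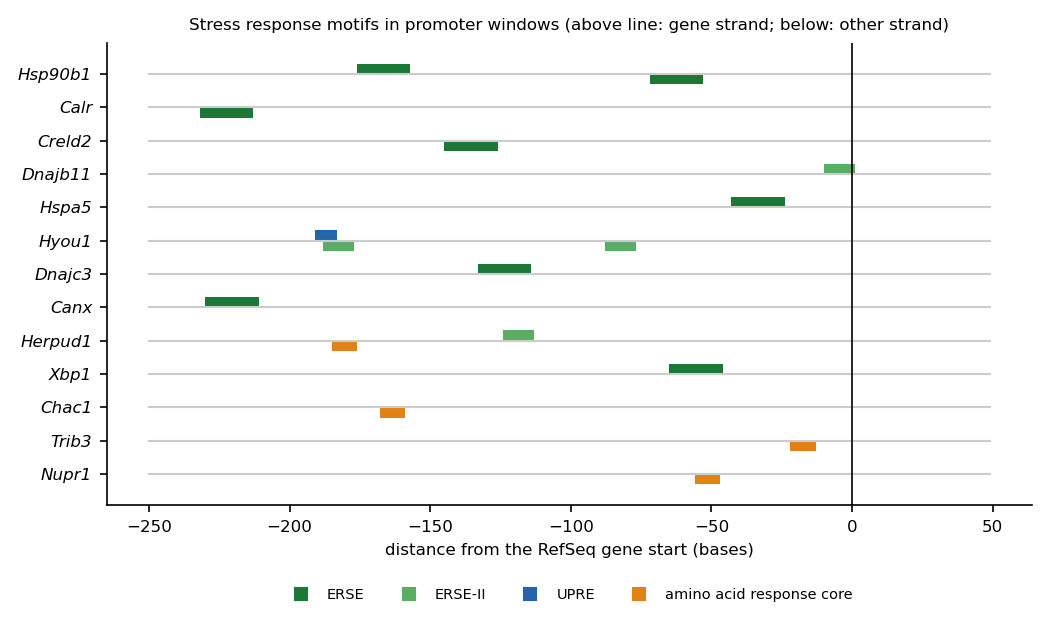
Positions of the matched motifs in the promoter windows of the 13 genes that held one, as distance in bases from the RefSeq gene start (0). Bars above a line are matches on the gene's own strand and bars below it on the other strand; ERSE and ERSE-II matches lie in chaperone genes, Herpud1 and Xbp1, and the amino acid response core in Trib3, Chac1, Nupr1 and Herpud1.

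The libraries held 31994838 to 40124813 counts in Sirt6-Ctrl and 32382957 to 36600792 in Sirt6-KD. Synthetic spike-in RNAs took 2.97% to 9.80% of the counts in Sirt6-Ctrl, highest in S1 (6.27%) and S2, but 2.15% to 2.47% in Sirt6-KD libraries (p = 0.0286 by a two-sided exact permutation test, the lowest p for 4 libraries against 4). Levels are given in counts scaled to library size (CPM) after TMM scaling, which centres the bulk of the genes. A rise or fall is therefore relative to the other genes of the same library. With libraries scaled by their spike-ins instead, the median over all genes, as log2 fold change, moved from -0.016 to 0.944, and values on that scale are given relative to this median. Sirt6 itself dropped from 52.7 ± 3.78 to 20.6 ± 1.07 CPM (SD, n = 4 each; log2 fold change -1.35, edgeR adjusted p = 0.000713). In whole cultures, fewer cells of a type and less RNA per cell cannot be told apart.

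Of the 34 genes measured, 17 were called lower in Sirt6-KD, 3 were called higher and 14 were not called. A gene was called when edgeR's quasi-likelihood test gave an adjusted p below 0.05 and the fold change was above 1.5, and by this rule 10.7% of all genes were lower and 8.02% higher. With the adjusted p alone 4 were higher and 20 lower, against 9.11% and 12.8% of all genes, and by edgeR's glmTreat, which tests against 1.5-fold, 1 was higher and 7 lower, against 0.694% and 1.4%. By the first rule the 3 higher genes were Atf6, Asns and Slc7a11, and the 17 lower ones were 13 chaperones and foldases, the ERAD genes Herpud1 and Syvn1, the sensor Eif2ak3 and the ATF4 target Ddit3. All 4 Sirt6-KD libraries lay below all 4 Sirt6-Ctrl libraries for 21 of the 34 genes, against 15.6% of all genes, and above them for 4, against 14.8%. The median log2 fold change of the 34 genes was -0.62, beside -0.02 for all genes, and with spike-in scaling it was 0.41, or -0.54 relative to all genes. On that scale edgeR called 1 of the 34 genes, Slc7a11, and of all 13250 genes it called 20 higher and 4 lower. Every other call among the 34 genes therefore rests on scaling to the bulk of the genes. In the plot of levels by library, the called chaperones, Herpud1, Syvn1 and Ddit3 lie on the low side in Sirt6-KD, and Atf6, Asns and Slc7a11 on the high side.

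**Figure D2:**
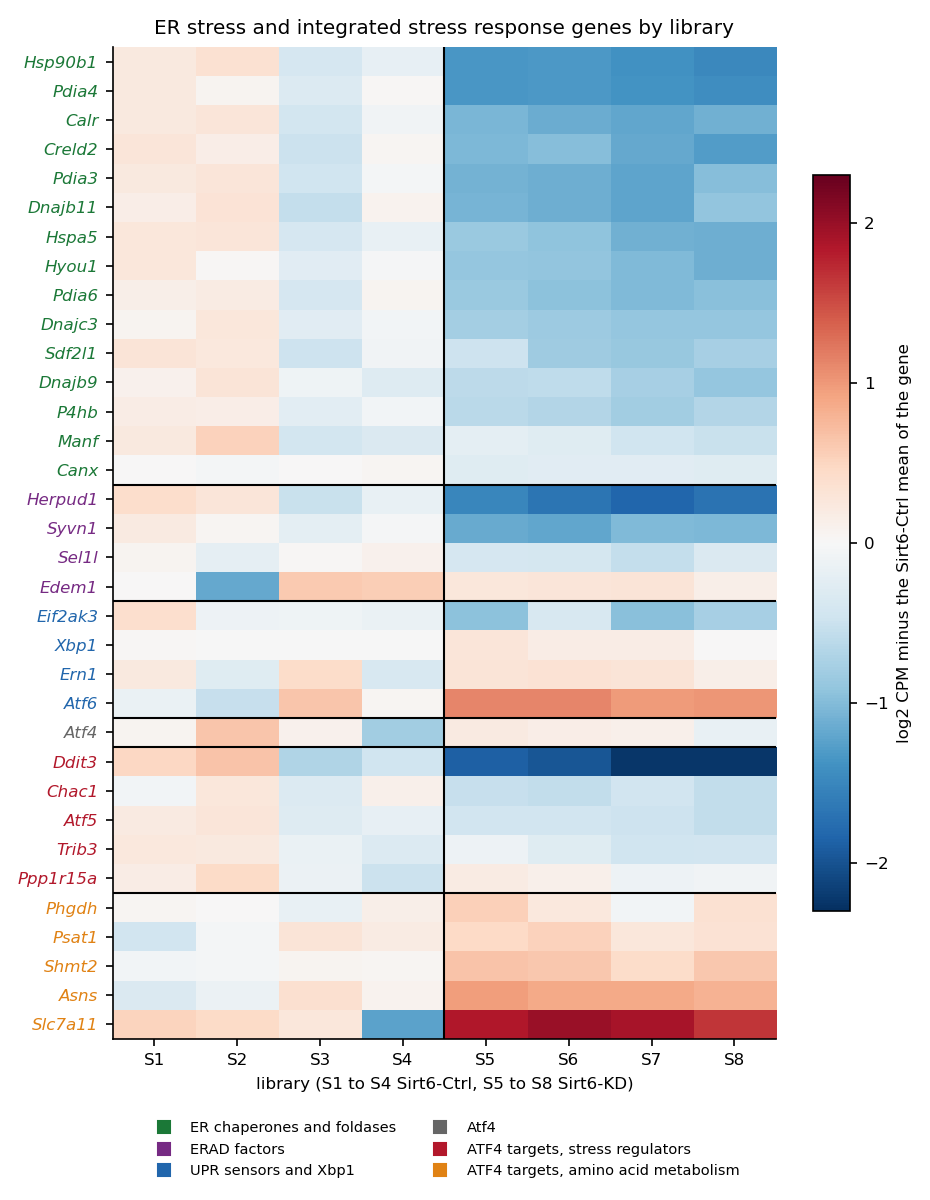
Level of each of the 34 genes in each library as log2 CPM minus the gene's mean over the 4 Sirt6-Ctrl libraries (colour scale; red above, blue below), with genes grouped by role (label colour) and S1 to S4 Sirt6-Ctrl, S5 to S8 Sirt6-KD. Most chaperones are blue in Sirt6-KD at this TMM scaling, and their median log2 fold change of -0.998 becomes 0.07 with spike-in scaling (-0.88 relative to all genes); S3 and S4 are the lower of the control libraries for most of them.

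The chaperones and foldases of the ER were lower as a group, at TMM scaling, in Sirt6-KD cells: 13 of 15 fell and none rose by edgeR (also none by DESeq2 or limma-voom, and none at an unadjusted p under 0.05), and all 15 log2 fold changes were negative (-1.41 to -0.27). Their median was -0.998, a fold of 0.501, and with spike-in scaling it was 0.07, or -0.88 relative to all genes. On that scale none of the 15 was called, where 4 of all 13250 genes were called lower. The 15 genes together took 4.09, 3.81, 2.95 and 3.39% of the gene counts in S1 to S4 and 1.90, 1.87, 1.75 and 1.74% in S5 to S8. The groups do not overlap in that share, and the Sirt6-Ctrl libraries spread more widely than the Sirt6-KD libraries.

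Hsp90b1, which encodes the ER chaperone GRP94, had the lowest log2 fold change of the 15. It was at 8745, 9507, 5695 and 6536 CPM in S1 to S4 and at 2954, 2985, 2834 and 2659 CPM in S5 to S8, with no overlap between the groups. Its mean fell from 7621 ± 1799 to 2858 ± 148 CPM (SD, n = 4 each), a log2 fold change of -1.41 (SE 0.19, edgeR adjusted p = 0.00244).
Pdia4, a disulfide isomerase, stood at 1850, 1667, 1277 and 1628 CPM in the controls and at 628, 634, 615 and 592 CPM in Sirt6-KD. Its log2 fold change of -1.38 (SE 0.15, edgeR adjusted p = 0.000952) had the smallest p of the 34 genes. The 4 Sirt6-KD libraries all lay below the lowest control.
Hspa5 encodes BiP, the Hsp70 of the ER and the chaperone that keeps the UPR sensors inactive. It was at 10750, 10870, 6851 and 7984 CPM in S1 to S4 and at 4947, 4734, 4132 and 4128 CPM in S5 to S8. The mean dropped from 9115 ± 2015 to 4485 ± 419 CPM (SD, n = 4 each), 49.2% of the control level (log2 fold change -1.02, SE 0.19, edgeR adjusted p = 0.00677). S1 and S2 were highest and the groups did not overlap.
The lectin chaperones calreticulin (Calr) and calnexin (Canx) bind the same sugar chains on new glycoproteins, one in the ER lumen and one in its membrane, and they gave different values. Calr was at 4811, 5033, 3076 and 3883 CPM in S1 to S4 and at 1988, 1867, 1791 and 1926 CPM in S5 to S8, a log2 fold change of -1.15 (SE 0.18, edgeR adjusted p = 0.00376). Canx was at 1911, 1835, 1903 and 1964 CPM in S1 to S4 and at 1570, 1579, 1585 and 1560 CPM in S5 to S8. Its groups did not overlap either, but the log2 fold change of -0.27 (95% interval -0.54 to -0.01) did not pass the test (edgeR adjusted p = 0.123). Both promoters hold an ERSE, as the sequences above show.

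The other disulfide isomerases fell as well. Pdia3, the partner of calreticulin and calnexin, went from 2759 ± 610 to 1264 ± 83.9 CPM (log2 fold change -1.13, edgeR adjusted p = 0.00429), Pdia6 from 1145 ± 192 to 589 ± 28.6 CPM (-0.96, edgeR adjusted p = 0.00421), and P4hb from 3938 ± 520 to 2431 ± 123 CPM (-0.70, edgeR adjusted p = 0.0109). P4hb, which is also a subunit of the prolyl hydroxylase that modifies collagen, had the smallest log2 fold change in size of these.
Among the J-domain partners of BiP, Dnajb11 was at 46.3% of its control level (log2 fold change -1.11, edgeR adjusted p = 0.00465), Dnajc3 at 55.0% (-0.86, edgeR adjusted p = 0.00376) and Dnajb9 at 60.5% (-0.72, edgeR adjusted p = 0.0103). Hyou1, the large Hsp70-like protein that exchanges nucleotide on BiP, fell from 926 ± 139 to 464 ± 34.3 CPM (log2 fold change -0.998, edgeR adjusted p = 0.00318), and Creld2 from 192 ± 40.5 to 86.8 ± 8.22 CPM (-1.14, edgeR adjusted p = 0.0033). In all 5 of these genes no Sirt6-KD library reached the lowest control.
Sdf2l1, a partner of ER chaperone complexes, was at 162, 156, 95.1 and 125 CPM in S1 to S4 and at 94.7, 74.7, 71.7 and 77.3 CPM in S5 to S8 (log2 fold change -0.76, SE 0.18, edgeR adjusted p = 0.0169). Here S5 and S3 nearly met, and the call was lost without S1, S6 or S7 and without S1 and S2 together.
Manf, an ER protein that is secreted on stress, was the only one of the 15 whose groups overlapped. It stood at 671, 828, 428 and 458 CPM in the controls and at 493, 476, 417 and 405 CPM in Sirt6-KD (log2 fold change -0.41, 95% interval -0.88 to 0.05, edgeR adjusted p = 0.182). Both S3 and S4 lay within the range of Sirt6-KD, and without S1 and S2 the value was 0.03.

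Among the controls, the chaperone values were highest in the libraries with the highest spike-in share: the mean log2 CPM of the 15 genes was 10.21 in S1 and 10.24 in S2 but 9.67 in S3 and 9.95 in S4. It was 9.18, 9.14, 9.03 and 9.06 in S5 to S8, below each control. With S1 and S2 left out, 10 of the 15 were lower rather than 13, with a median log2 fold change of -0.79, and P4hb, Dnajb9 and Sdf2l1 no longer passed. In that fit 709 of 14177 genes were lower, against 1416 of 13250 with every library. The part of the spike-in share in the size of these differences was not tested.

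ERAD removes misfolded protein from the ER, and its factors were divided. Herpud1, which encodes a small membrane protein that assembles the degradation complex, was at 604, 555, 320 and 405 CPM in S1 to S4 and at 162, 142, 129 and 141 CPM in S5 to S8. Its mean fell from 471 ± 132 to 143 ± 13.7 CPM (SD, n = 4 each), which is 30.4% of the control (log2 fold change -1.72, SE 0.20, edgeR adjusted p = 0.00143). Every Sirt6-KD library was far below S3, the lowest control.
Syvn1, the gene of the ERAD ubiquitin ligase HRD1, was at 123, 109, 90.8 and 103 CPM in S1 to S4 and at 47.4, 46.2, 52.7 and 51.5 CPM in S5 to S8 (log2 fold change -1.11, SE 0.13, edgeR adjusted p = 0.00149). It overlaps Mrpl49 on the GRCr8 annotation, and Mrpl49 was also lower (log2 fold change -1.91). Sel1l, the adaptor of HRD1, had an adjusted p of 0.0342 by edgeR but a fold of 0.746, short of the threshold, at 413 to 510 CPM in Sirt6-Ctrl and 324 to 376 CPM in Sirt6-KD.
Edem1, which helps to pull mannose-trimmed glycoproteins out of folding, was at 88.5, 38.8, 133 and 129 CPM in the controls and at 105, 106, 108 and 96.5 CPM in Sirt6-KD. The groups overlapped, S2 was far below the rest, and the log2 fold change of 0.09 (95% interval -0.58 to 0.77) became -0.16 without S2.

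The sensors of the UPR did not share a direction. Atf6, whose protein is cut from the ER membrane to become a transcription factor for chaperone genes, was at 103, 79.5, 178 and 118 CPM in S1 to S4 and at 250, 250, 226 and 230 CPM in S5 to S8. The mean rose from 120 ± 41.8 to 239 ± 12.8 CPM (SD, n = 4 each), 1.996-fold (95% interval 1.44 to 2.77; log2 fold change 0.997, SE 0.21, edgeR adjusted p = 0.0116). No control reached the Sirt6-KD range, with S3 the nearest.
Eif2ak3, the gene of PERK, moved the other way, from 86.2, 60.5, 61.2 and 59.2 CPM in S1 to S4 to 34.1, 51.1, 33.8 and 38.9 CPM in S5 to S8 (log2 fold change -0.76, SE 0.19, edgeR adjusted p = 0.0187). S1 stood above the other controls and S6 above the other Sirt6-KD libraries. The call was lost when S1, S5, S7 or S8 was left out in turn, and also without S1 and S2 together (log2 fold changes between -0.91 and -0.58 with 1 library left out).
Ern1, the gene of IRE1, was at 63.4 to 109 CPM in Sirt6-Ctrl and 89.5 to 102 CPM in Sirt6-KD (log2 fold change 0.23, 95% interval -0.17 to 0.62, edgeR adjusted p = 0.392). Xbp1 was at 141, 138, 138 and 137 CPM in the controls and at 168, 157, 156 and 139 CPM in Sirt6-KD (log2 fold change 0.16, 95% interval -0.08 to 0.40, edgeR adjusted p = 0.321). Counts per gene do not separate the spliced from the unspliced Xbp1 RNA, so the activity of IRE1 was not measured.

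Atf4 RNA showed no difference that this test could detect. It was at 1249, 1847, 1270 and 689 CPM in S1 to S4 and at 1375, 1317, 1294 and 1059 CPM in S5 to S8, with a log2 fold change of -0.0028 (95% interval -0.56 to 0.55, edgeR adjusted p = 0.995). The controls S2 and S4 were the highest and lowest of all 8 libraries, and the groups overlapped throughout. ATF4 is set largely by translation, which these counts do not show.

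The 10 measured ATF4 targets differed in sign by role at TMM scaling, though the stress regulator Ppp1r15a was near 0 and turned sign in 11 of 16 alternatives. The 5 stress regulators had negative log2 fold changes (-2.19 to -0.01, median -0.50), and with spike-in scaling their median was 0.58, or -0.36 relative to all genes. Of the 5 only Ddit3 was called. Without S1 and S2 their median was -0.23, with 1 higher and 2 lower at an unadjusted edgeR p under 0.05. The 5 genes of amino acid supply had positive ones (0.28 to 1.71, median 0.58) under both scalings, with a median of 1.5 by spike-ins, or 0.56 relative to all genes. Over the 10, 2 rose, 1 fell and 7 were not called, where 8.02% of all genes rose and 10.7% fell.

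Ddit3, the gene of CHOP, a transcription factor linked to cell death under lasting ER stress, had the lowest log2 fold change of all 34 genes. It was at 792, 898, 352 and 414 CPM in S1 to S4 and at 153, 144, 121 and 120 CPM in S5 to S8. The mean fell from 614 ± 271 to 135 ± 16.9 CPM (SD, n = 4 each), which is 21.9% of the control (log2 fold change -2.19, SE 0.29, edgeR adjusted p = 0.00244). S1 and S2 were at more than 1.5 times S3 and S4, yet every control was above every Sirt6-KD library, and dropping any 1 library left the log2 fold change at -2.38 to -1.93. Ddit3 overlaps Mars (Mars1 on GRCr8), whose own libraries lay higher in Sirt6-KD (log2 fold change 0.57).
Chac1, which degrades glutathione, was at 41.4, 51.7, 34.5 and 47.0 CPM in the controls and at 29.9, 29.2, 31.9 and 29.0 CPM in Sirt6-KD. Its log2 fold change of -0.54 had an adjusted p of 0.034 by edgeR but was under the fold threshold. Atf5, a transcription factor that acts downstream of ATF4, gave a like picture at 403 to 598 CPM against 336 to 366 CPM (log2 fold change -0.50, edgeR adjusted p = 0.0409). In both genes the groups did not overlap, and both were called without S3.
Trib3, a pseudokinase that restrains ATF4, was at 132 to 193 CPM in Sirt6-Ctrl and 119 to 151 CPM in Sirt6-KD, and did not pass (log2 fold change -0.34, 95% interval -0.68 to 0.01). Ppp1r15a, which encodes GADD34, the subunit that brings a phosphatase to eIF2α, was at 601, 722, 485 and 379 CPM in the controls and at 608, 574, 490 and 501 CPM in Sirt6-KD (log2 fold change -0.01, 95% interval -0.44 to 0.42). Its groups overlapped.

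Slc7a11, the cystine importer xCT, had the highest log2 fold change of the 34 genes. It was at 71.4, 68.1, 60.0 and 21.4 CPM in S1 to S4 and at 180, 199, 186 and 155 CPM in S5 to S8. The mean rose from 55.2 ± 23.1 to 180 ± 18.2 CPM (SD, n = 4 each), 3.26-fold (95% interval 2.02 to 5.25; log2 fold change 1.71, SE 0.31, edgeR adjusted p = 0.00655). It was the only one of the 20 called genes that passed under all 16 alternatives, spike-in scaling included (log2 fold change 2.85, edgeR adjusted p = 0.0345).
Asns, asparagine synthetase, was at 60.4, 69.7, 98.8 and 80.4 CPM in the controls and at 148, 139, 140 and 132 CPM in Sirt6-KD. It rose 1.81-fold (log2 fold change 0.85, SE 0.16, edgeR adjusted p = 0.00655), with no overlap between the groups. S3, the control with the lowest chaperone mean, had the highest Asns level of the controls.
Shmt2, the mitochondrial enzyme that passes carbon from serine to folate, was at 169, 172, 185 and 183 CPM in S1 to S4 and at 278, 271, 236 and 271 CPM in S5 to S8. Its fold of 1.49 was just short of the threshold although the adjusted p was 0.00845 (edgeR), and it was called under 8 of 16 alternatives. Psat1 and Phgdh, which make serine, had overlapping groups: Psat1 was at 30.4 to 50.7 CPM against 49.6 to 59.1 CPM (log2 fold change 0.38, edgeR adjusted p = 0.141), and Phgdh at 33.8 to 41.8 CPM against 36.4 to 55.6 CPM (0.28, edgeR adjusted p = 0.236).

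**Figure D3:**
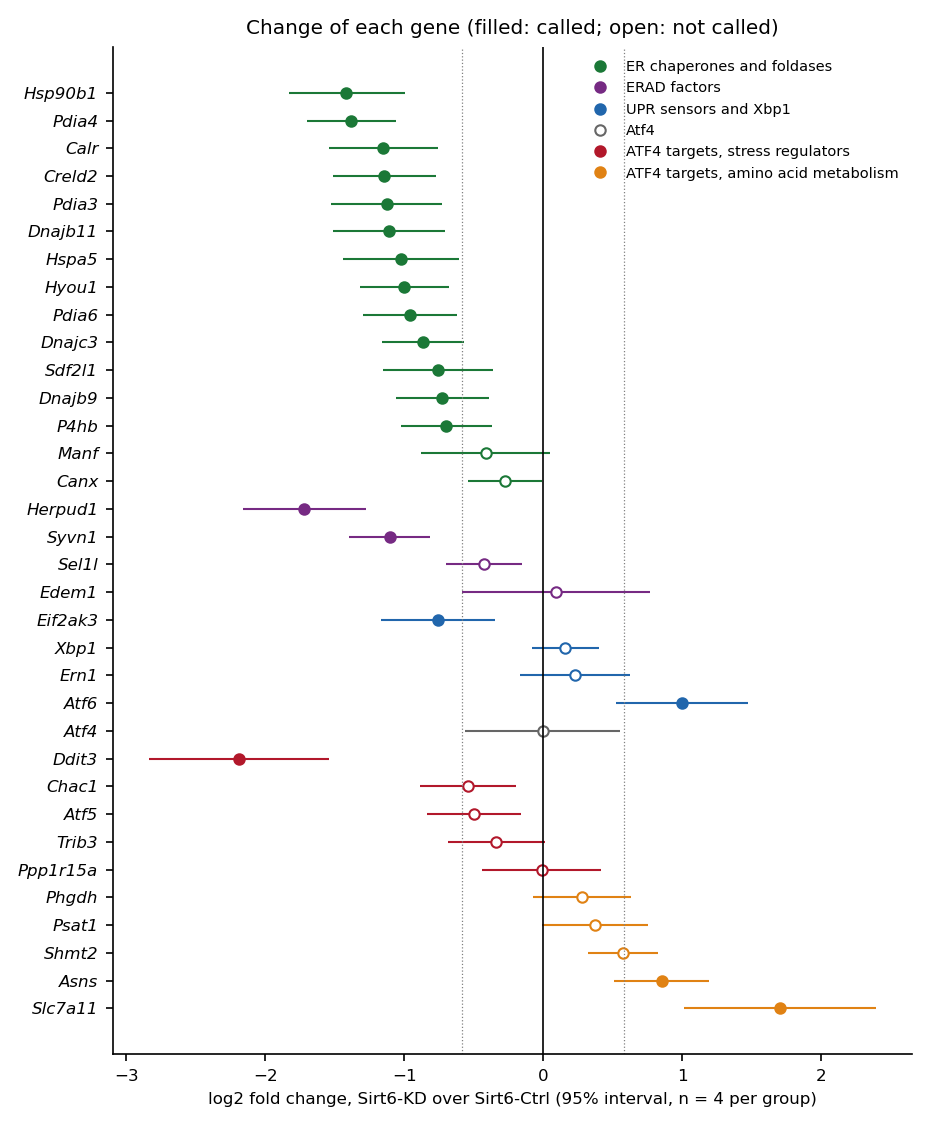
Log2 fold change (Sirt6-KD relative to Sirt6-Ctrl) for each of the 34 genes (x axis, TMM scaling), with the 95% interval of the edgeR fit as bars (n = 4 per group) and roles in colour; filled points were called, open ones were not, and dotted lines mark a fold change of 1.5. The chaperones lie between -1.41 and -0.27, Ddit3 at -2.19 and the genes of amino acid supply between 0.28 and 1.71; spike-in scaling moves all points up, and the chaperone median to 0.07 (-0.88 relative to all genes).

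The arms were then set against each other within each library. Such a difference of mean log2 CPM cannot be moved by how libraries are scaled; its size depends on the lengths and base levels of the genes, and only its change between libraries is read. The chaperone mean minus the mean of the 10 ATF4 targets was 3.14, 3.04, 2.76 and 3.16 in S1 to S4 and 2.02, 2.03, 2.08 and 2.08 in S5 to S8. The difference went from 3.03 ± 0.19 to 2.05 ± 0.03 (SD, n = 4 each), by -0.97 on the log2 scale, so that chaperone RNA relative to ATF4 target RNA was 0.51 of the control. The lowest control, S3, remained above the highest Sirt6-KD library.
Against the 5 genes of amino acid supply alone, the chaperone mean stood at 4.27, 4.2, 3.51 and 4.11 in the controls and at 2.30, 2.29, 2.36 and 2.31 in Sirt6-KD, a change of -1.71. All 5 of these genes had positive log2 fold changes, so a wider gap than with the whole arm followed from the choice. The ATF4 arm taken whole held values of both signs, and 1 gene on each side was far from the rest. Among the stress regulators Ddit3 was at -2.19 and the next, Chac1, at -0.54. Among the genes of amino acid supply Slc7a11 was at 1.71 and the next, Asns, at 0.85. The mean log2 CPM of the whole arm was 6.99 ± 0.18 in Sirt6-Ctrl and 7.05 ± 0.10 in Sirt6-KD (SD, n = 4 each). Its stress regulators went from 7.99 ± 0.34 to 7.31 ± 0.10 at TMM scaling and its genes of amino acid supply from 6.0 ± 0.14 to 6.79 ± 0.10.
Within the ATF4 arm, Ddit3 minus Asns, a pair chosen after its values were seen, was 3.71, 3.69, 1.83 and 2.36 in S1 to S4 and 0.05, 0.05, -0.21 and -0.13 in S5 to S8. The groups do not overlap, and S1 and S2 were farthest from Sirt6-KD.

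**Figure D4:**
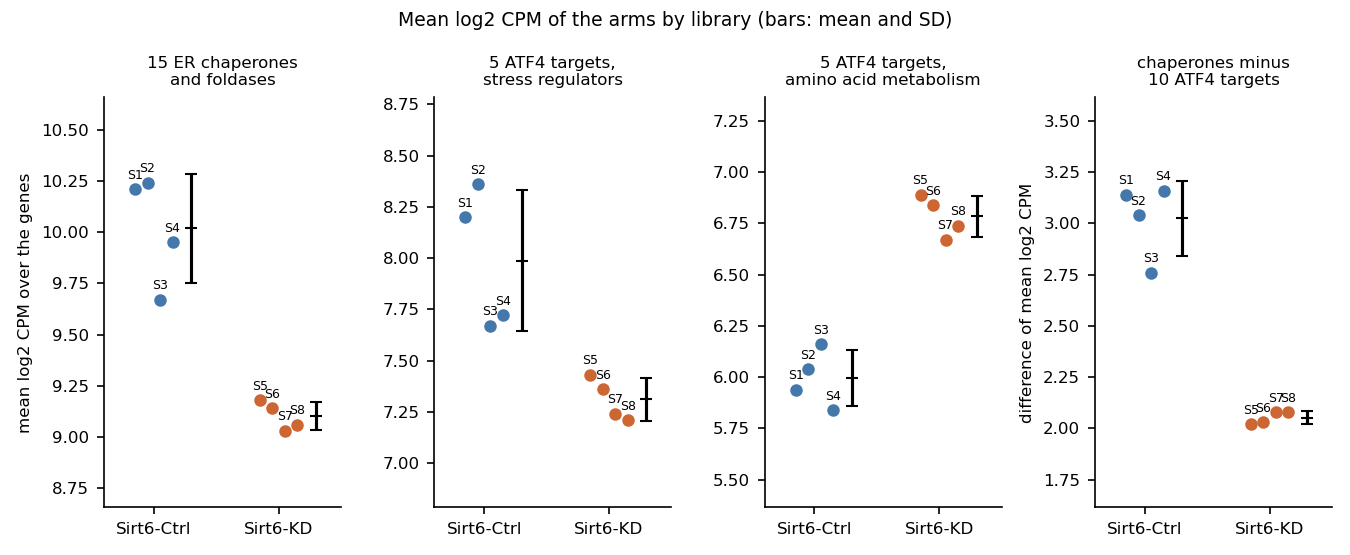
Mean log2 CPM per library of the 15 chaperones and foldases, of the 5 ATF4 targets that regulate stress and of the 5 that supply amino acids, and the chaperone mean minus the mean of all 10 ATF4 targets (y axes, log2 units, each spanning 2 units). Points are libraries, black bars the mean and SD of 4; the first 2 panels are lower in Sirt6-KD at TMM scaling (their medians are 0.07 and 0.58 by spike-ins, -0.88 and -0.36 relative to all genes), the third is higher, and the last, which scaling does not move, goes from 3.03 to 2.05.

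The wider pathway was described by lists of other genes, counted by the same rule and read beside the 10.7% of all genes called lower and the 8.02% called higher. Genes that act along the secretory route were mostly negative at TMM scaling. Of 25 other ER folding genes, 4 fell and 1 rose (median log2 fold change -0.35, or 0.66 with spike-in scaling, which is -0.28 relative to all genes). Those named by smallest p were the collagen chaperone Serpinh1 (-1.30, edgeR adjusted p = 0.00401), the sulfatase activator Sumf1 (-0.88) and the J-protein Dnajb2 (-0.62). The oxidase Ero1a, which gives disulfide isomerases their oxidizing power and is also known as a hypoxia-inducible gene, was the one that rose (1.23, edgeR adjusted p = 0.0196).
Of 21 other ERAD genes, 9 fell and none rose by edgeR, DESeq2 or limma-voom (1 was higher at an unadjusted p under 0.05; median -0.47, or 0.48 with spike-in scaling, -0.46 relative to all genes), led by the ubiquitin-conjugating enzyme Ube2g2 (-1.08, edgeR adjusted p = 0.00266), Faf2 (-0.81) and Ufd1 (-0.98), both partners of the segregase VCP. Of 37 genes of the translocon, glycosylation and ER export, 15 fell and none rose by edgeR (1 rose by DESeq2, by limma-voom and at an unadjusted p under 0.05; median -0.46, or 0.53 with spike-in scaling, -0.42 relative to all genes), led by the signal recognition particle receptor Srpra (-0.86, edgeR adjusted p = 0.00277), the KDEL receptor Kdelr1 (-1.05) and the vesicle coat GTPase Sar1b (-1.19). Cytosolic heat shock genes, which respond to unfolded protein outside the ER, fell in 13 of 22 and rose in none by edgeR, DESeq2, limma-voom or an unadjusted p under 0.05 (median -0.87, or 0.22 with spike-in scaling, -0.73 relative to all genes), led by the small heat shock gene Hspb8 (-1.42, edgeR adjusted p = 0.000976), its partner Bag3 (-1.74) and the HSP90 activator Ahsa1 (-1.26).
The signalling layer of the pathway was counted in the same way. A list of 18 other UPR genes held membrane-bound factors along with cytosolic signalling genes, nuclear factors and cell death genes. Of these 18, 2 fell (Bak1, -0.86, and Creb3, -0.59) and none rose by edgeR or at its unadjusted p under 0.05 (1 by limma-voom). Their median was -0.09, or 0.87 with spike-in scaling, -0.08 relative to all genes. Of 21 other ISR genes, 4 fell and none rose by any of the 3 tools or at an unadjusted p under 0.05 (median -0.31, or 0.68 with spike-in scaling, -0.26 relative to all genes), led by the eIF2α kinase PKR (Eif2ak2, -0.98, edgeR adjusted p = 0.00544) and the eIF2B subunits Eif2b2 (-0.78) and Eif2b4 (-0.62). The counts of these smaller groups moved with single libraries, as did the count over all genes. Without S1, S2 or S3 the other ER folding genes gave 2, 2 and 7 lower and the other ISR genes 2, 2 and 7 lower. Without S4, 7 of the ISR genes were lower, and without S5, S6 or S8 it was 2 each. The other UPR factors gave 1 lower without any one of S1, S4, S5, S6 and S7 and 4 without S3. Of the 13542 to 13689 genes tested, 777, 1152, 1913 and 1481 were lower without S1, S2, S3 and S4. Without S5, S6, S7 and S8 it was 791, 700, 759 and 985, against 1416 of 13250 with every library. Ero1a was not called without any one of S1, S5, S6 and S7.

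The other ATF4 targets were mostly on the positive side, in 21 of 29 measured. Of these 29, 8 rose and 2 fell, with a median log2 fold change of 0.53 (1.41 with spike-in scaling, 0.47 relative to all genes). The amino acid transporters Slc7a5 (0.66, edgeR adjusted p = 0.00964) and Slc6a9 (0.79) and the tRNA exporter Xpot (0.59) rose, while the stress-inducible Sesn2 (-0.66) and the transporter Slc1a4 (-0.62) fell. Amino acid transporters thus had both signs. The stress gene Ddit4, named after its value was seen, was positive (0.63, not called), so the division by role among the 10 targets was not general. Named after their values were seen, Vegfa and Ndrg1, which are better known as hypoxia-inducible genes, were 2 of the 8 that rose. The count moved with single libraries, as did the count over all genes. Without S1, S5, S6, S7 or S8, 2, 2, 1, 2 and 4 of the 29 rose. Over all genes it was 552, 491, 445, 477 and 736. Without S2, S3 or S4, 6, 12 and 8 rose, beside 1171, 1699 and 1096 of all genes. Without S1 and S2 together 1 rose and none fell by edgeR (2 were lower at an unadjusted p under 0.05), with a median of 0.35. In that fit 810 of all genes rose and 709 fell. These fits tested 13542 to 14177 genes, and with every library 1063 of 13250 rose. By DESeq2 and limma-voom 11 and 10 rose, beside 1602 of 18758 and 1591 of 13250 genes. Of 18 aminoacyl-tRNA synthetases, several of which are ATF4 targets, 1 rose (Vars, 0.59, edgeR adjusted p = 0.0129) and none fell by any of the 3 tools (4 were lower at an unadjusted p under 0.05), with a median of 0.05. Vars was at 1.504-fold, close to the threshold, and none of the 18 rose without S1, S4, S5 or S6.

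**Figure D5:**
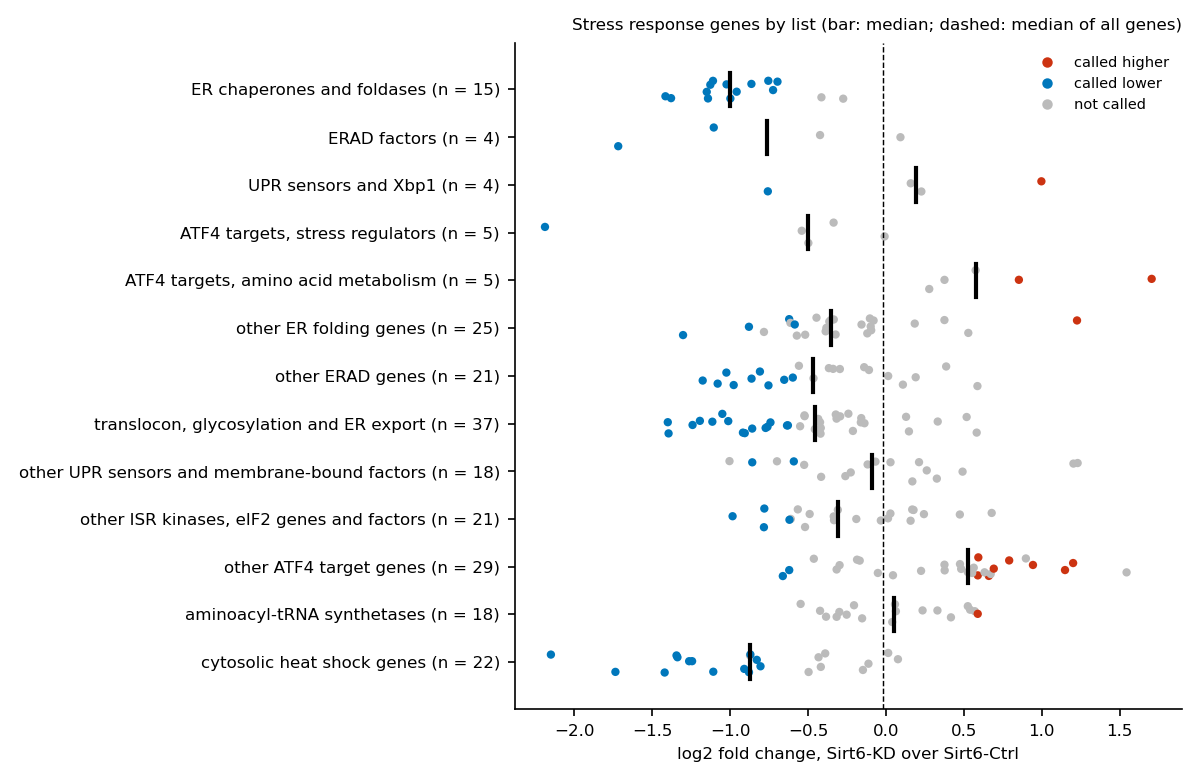
Log2 fold change, Sirt6-KD relative to Sirt6-Ctrl (x axis, TMM scaling) for every measured gene of each list (rows), red where called higher, blue where called lower and grey otherwise; vertical bars are list medians and the dashed line the median of all genes (-0.02). Folding, ERAD, export and cytosolic heat shock genes lie mostly to the left and the amino acid and other ATF4 target lists to the right; with spike-in scaling the left-hand medians become positive (0.07 to 0.66) and are -0.88 to -0.28 relative to all genes.

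All the genes with an ERSE in their window were also counted, whether in the set or not. Of 15 measured, 7 fell and none rose by edgeR (also none at an unadjusted p under 0.05), and the 7 include 5 of the chaperones (Hspa5, Hsp90b1, Calr, Dnajc3 and Creld2). Of the 8 outside the set, Ankmy2 (log2 fold change -0.60) and Zfand2a (-0.93) fell, both named after their values were seen, and the median of the 8 was 0.29. None of the 6 genes outside the set with an ERSE-II passed the test by edgeR (1 was higher at an unadjusted p under 0.05). Of 94 measured genes with the UPR element, 5 rose and 17 fell (median -0.18), and of 192 with the amino acid response core 17 rose and 17 fell (median -0.03), where 8.02% of all genes rose and 10.7% fell. A motif match is not evidence that a factor bound there.

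Markers of the cell type and of other cells moved with the groups as follows. Of 18 NP markers, 12 had a row, and their summed level was 407 to 578 CPM in Sirt6-Ctrl and 585 to 716 CPM in Sirt6-KD; brachyury, the keratins Krt18 and Krt19, Col2a1, Shh and Noto were not matched to a row here. Of the 12, 7 had a positive log2 fold change and 5 a negative one, with a median of 0.29 (1.2 with spike-in scaling, 0.26 relative to all genes). By edgeR 1 of the 12 rose and 2 fell, where 8.02% of all genes rose and 10.7% fell. Named after their values were seen, the adhesion molecule Ncam1 rose, from 85.0 ± 36.4 to 209 ± 34.8 CPM (edgeR adjusted p = 0.0108), while the keratin Krt8 fell, from 6.56 ± 3.07 to 2.63 ± 0.47 CPM (edgeR adjusted p = 0.0441), as did the carbonic anhydrase Car3 (edgeR adjusted p = 0.0127). Also named after their values were seen, the following were not called. Car12 went from 28.4 ± 31.0 to 82.1 ± 10.8 CPM, while Acan (log2 fold change -0.62), Cd24 (-0.98) and Pax1 (-0.43) were negative. Foxa1 and Foxa2, both positive, were at only 0.24 and 0.35 CPM in Sirt6-Ctrl. The sum follows the genes of highest level, such as Ncam1, and does not describe the markers 1 by 1. Without S3, 4 of the 12 rose, as did 1699 of 13562 genes. Of 10 markers of annulus fibrosus cells and fibroblasts, 9 had a row and summed to 14600 to 27500 CPM against 8760 to 18600 CPM, nearly all of it Col1a1 and Col3a1. Of these 9, 3 fell, where 10.7% of all genes fell (Dpt, Col3a1 and Scx, the first and last named after their values were seen). None rose by any of the 3 tools (1 was higher at an unadjusted p under 0.05 by edgeR, and 1 rose without S3). The median log2 fold change of the 9 was -0.63 (0.17 with spike-in scaling, -0.78 relative to all genes). The 3 matched of 10 macrophage and leukocyte markers summed to 11.9 to 29.7 CPM against 15 to 23.8 CPM, 1 of 7 endothelial markers was matched (0 to 0.509 against 0.179 to 0.592 CPM), none of 5 erythroid ones was matched, and 6 of 7 smooth muscle and pericyte markers summed to 433 to 1610 CPM against 513 to 1120 CPM. Col3a1 fell from 1069 ± 308 to 412 ± 153 CPM (log2 fold change -1.38, edgeR adjusted p = 0.00812), and Col1a1 went from 17090 ± 5599 to 11030 ± 4373 CPM without passing (-0.63, edgeR adjusted p = 0.15). The part of these cell markers in the chaperone values was not tested.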

How the data were processed

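RNA of primary rat NP cells (4 Sirt6-Ctrl and 4 Sirt6-KD libraries, from independent experiments with RNA of high integrity) was sequenced by Azenta. The authors deposited raw read counts per Ensembl gene and spike-in for 32975 rows. A second deposited table, the authors' comparison of the groups over 13612 rows, has normalized signal per library, log2 fold changes and p-values, and only its gene names were used. The submitters' processing notes name Trimmomatic 0.36, STAR 2.5.2b, featureCounts, Subread 1.5.2, DESeq2 and the Rnor_6.0 build; whether counting used strand is not given in the sources used here, so reads of overlapping genes may not be told apart (on GRCr8: Creld2 and Alg12, Syvn1 and Mrpl49, Pdia3 and Catsper2, Atf5 with Nup62 and Il4i1, Ddit3 and Mars1, Shmt2 and Ndufa4l2, and Atf6, Herpud1 and Ddit3 with uncharacterized loci).

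Groups came from the genotype labels. The series describes cells of 4 rats with their controls, but no label ties a knockdown library to its control, so the fit was unpaired, and p-values measure the spread between these libraries. Counts were filtered (filterByExpr), scaled by TMM and tested with edgeR 4.0.16 in R 4.3.3 by the two-sided quasi-likelihood test, with Benjamini-Hochberg adjustment over all 13313 rows, including 63 spike-in rows. Calls needed a fold change above 1.5 with an adjusted p below 0.05. Counts at an unadjusted p are given only as a limit on the calls, without the share of all genes. Alternatives used DESeq2 1.42.0, limma 3.58.1 (voom), other filters and scalings, and libraries left out. The fits were tested on simulated data. No replicate pair differed by so little as sampling noise. Sirt6-KD pairs were more alike (Pearson r of log2 levels 0.994 to 0.995) than Sirt6-Ctrl pairs (0.969 to 0.988), and the reason was not tested. In each library 3 counts correspond to 0.0727 to 0.0928 CPM, which covers counting error only, since PCR copies are not marked by molecular identifiers.

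The 35 genes and the lists were chosen with earlier results of these data known, so counts and medians over a list are descriptions and lists were not tested. All 35 genes and Sirt6 are reported, with up to 3 called genes per direction with the smallest p from each pathway list and at most the 3 genes of highest count from each cell type list; others named are said to be chosen after their values were seen. RefSeq promoter windows were matched by symbol.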

Additional observations from a re-analysis of the deposited data

Results flagged for a closer look

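Within each group of 4 libraries, the highest and lowest CPM value of each of the 34 genes and Sirt6 was compared with its nearest neighbour. Of 70 groups examined 2 stood out, where chance alone gives about 1 in 20 (3.5). For Eif2ak3 in Sirt6-Ctrl, S1 (86.2 CPM) was apart from the other controls by 0.925 of the whole range of the group. For Shmt2 in Sirt6-KD, S7 (236 CPM) was below the other libraries by 0.836 of the range. The call for Eif2ak3 was lost without S1, and Shmt2 was called without S7.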

How the results depend on the processing

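No paired analysis was possible because no label or column says which libraries share a rat. Under RLE size factors, DESeq2, limma-voom, both other filters and removal of the spike-in rows, 3 to 4 genes of the set were higher and 17 lower. With each library left out in turn, 3 to 4 were higher and 15 to 19 lower, with a chaperone median of -1.08 to -0.885 and an ATF4 target median of 0.0564 to 0.23. Over all genes 445 to 1699 were higher and 700 to 1913 lower in these fits. Without S1 and S2 together, 3 were higher and 13 lower, and the chaperone median was -0.785. Over all genes 810 were higher and 709 lower in that fit. With no fold threshold the counts were 4 higher and 20 lower, against 9.11% and 12.8% of all genes. By glmTreat (a test against 1.5-fold), 1 was higher and 7 lower, against 0.694% and 1.4% of all genes. Scaling by spike-ins left 1 higher and 0 lower by edgeR. At an unadjusted p under 0.05 it was 10 higher and 1 lower, a count not set beside all genes, whose median rose on that scale. Of all 13250 genes 20 were called higher and 4 lower on that scale. The medians were 0.0663 for chaperones and 1.17 for ATF4 targets where the median of all genes was 0.944. Relative to it they were -0.878 and 0.226.

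Log2 fold changes that turned sign with spike-in scaling were Hspa5 0.0663, Canx 0.67, Pdia6 0.0761, P4hb 0.34, Dnajb9 0.33, Dnajc3 0.18, Sdf2l1 0.33, Manf 0.75, Hyou1 0.0175, Sel1l 0.49, Eif2ak3 0.24, Atf4 1.15, Atf5 0.58, Trib3 0.73, Chac1 0.48 and Ppp1r15a 1.11, while 11 other calls kept their sign and lost significance. Without S1 and S2, Manf was 0.0254, Edem1 -0.32, Atf4 0.37 and Ppp1r15a 0.34. Atf4 and Ppp1r15a, both near 0, turned sign in 11 of 16 alternatives each. They were 0.016 and 0.0103 with RLE, 0.0152 and 0.0095 with DESeq2, 0.0705 and 0.0246 with limma-voom, 0.04 and 0.0334 with no filter, and 0.0325 and 0.0259 without spike-in rows, and Atf4 was 0.000538 with at least 1 CPM in 4 libraries. With 1 library left out, Atf4 lay between -0.21 and 0.25, Ppp1r15a between -0.15 and 0.17 and Edem1 between -0.16 and 0.28. The cause was not tested. A spike-in share of 2.97% to 9.80% among 4 controls limits the spike-in scale, and 4 libraries per group limit all values.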
